A study of Mus musculus with 4 samples.

Results

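The genes described here are those of the Wnt pathway in mouse brain, namely Wnt ligands, the ligand acyltransferase Porcn, Frizzled receptors (Fzd), the coreceptors Lrp5 and Lrp6, R-spondins (Rspo) and their receptors (Lgr), secreted antagonists (Sfrp, Wif1) with the Dkk family, and the cytoplasmic and nuclear genes Dvl, Axin, Apc, Gsk3b, Ctnnb1, Tcf7, Tcf7l1, Ccnd1 and Myc. They were chosen by symbol, with earlier results of these data known, and 46 of the 12700 genes in the table of counts were members. RNA was sequenced from C57BL/6 mice aged 9 months, either Ids-ko (H), which lack the lysosomal enzyme iduronate 2-sulfatase and serve as a model of mucopolysaccharidosis type II, or wild-type (WT) littermates. The areas were the cerebral cortex (Cx) and a block of midbrain, diencephalon and hippocampus (M), in which the methods include hypothalamus, thalamus and striatum. The 4 conditions were coded CxH, MH, CxWT and MWT, and each was 1 library made from pooled RNA of 7 mice. Both areas came from the same brains according to the methods, so the libraries of a genotype share their mice. No value has a replicate check, and a test on the reads of a pair tells whether those libraries differ, not whether the conditions do.

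Wnt proteins are secreted after Porcn has attached a lipid to them, and they bind a Frizzled receptor together with Lrp5 or Lrp6. In the canonical branch Dvl proteins then hold back the destruction complex of Axin, Apc and Gsk3b, so that β-catenin (Ctnnb1) accumulates and acts in the nucleus with factors of the TCF/LEF family on targets such as Ccnd1. R-spondins bound to Lgr receptors raise the response, while Sfrp proteins and Wif1 bind Wnt proteins outside the cell; in the adult brain the pathway is known for roles in synapses, the blood-brain barrier and the making of new neurons.

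Levels are given in RPM, the reads of a gene per 1000000 aligned reads of its library, and a log2 ratio compares the RPM of a pair of libraries, with CxH over CxWT named the Cx ratio and MH over MWT the M ratio. Standard errors after ± cover counting. Calls required a p-value under 0.05 in a Poisson likelihood ratio test and a log2 ratio of 0.7 or more, up or down. The libraries held between 16380080 and 23475080 reads on genes, or 56.6% to 61.0% of their aligned reads. Relative to all aligned reads, 3 reads stand at 0.0779 to 0.104 RPM, and members had between 9 and 12762 reads in a library. Positions are those of GENCODE vM1 on NCBI37/mm9. In pooled tissue, fewer cells of a type and less RNA per cell cannot be told apart.

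The labels were checked first. Ids, on chromosome X from 67596244 to 67618260, had 135 RPM in CxH and 354 in CxWT, but 368 in the library labelled MH and 155 in the library labelled MWT, so its Cx ratio was -1.39 ± 0.024 and its M ratio 1.24 ± 0.025. Of the M libraries, the one labelled as knock-out thus had more reads on Ids. Markers of the areas also divided the libraries by H and WT. The 15 markers of cortical excitatory neurons summed to 2350 RPM in CxH and 2150 in MH, against 460 in CxWT and 390 in MWT. The 17 measured markers of midbrain and diencephalon summed to 46.8 RPM in CxH and 59.0 in MH, against 530 in CxWT and 478 in MWT, and the 6 hypothalamic neuropeptides to 5.81 to 7.56 RPM in the H libraries against 59.1 to 74.3 in the WT libraries. Of the cortical markers 13 of 15 were called higher in H in each area, and of the midbrain and diencephalic ones 16 of 17 were called lower. Other lists moved with H as well, with 947 and 765 RPM in CxH and MH against 354 and 348 in CxWT and MWT for 8 striatal genes, 587 and 641 against 138 and 264 for 9 choroid plexus genes, and 4950 and 5150 against 9380 and 7510 for 7 oligodendrocyte genes. The 10 microglial genes summed to 593, 319, 274 and 471 RPM in CxH, MH, CxWT and MWT, and the sums for 4 hippocampal, 9 endothelial, 6 meningeal and 7 astrocytic genes ranged from 40.8 to 60.6, 162 to 227, 118 to 134 and 2120 to 3090 RPM. Among the lists the dopaminergic midbrain factor En1 in MH was the only marker at 0 reads. Hence the area labels of MH and CxWT go against the cortical and the midbrain and diencephalic markers. Each member ratio of H over WT below thus also compares libraries rich in cortical markers with libraries rich in midbrain and diencephalic markers. The part of this difference in the member ratios was not tested. No exchange of a single pair of labels fits both measures. Exchanging MH with CxWT would let the cortical, midbrain and diencephalic markers follow the areas. It would leave Ids higher in the knock-out than in the wild-type library of M. Exchanging MH with MWT would make Ids lower in knock-out in both areas but leave those markers divided across them. Moving 3 labels, with MH read as CxWT, CxWT as MWT and MWT as MH, would fit Ids and those markers. Under none of these would the striatal genes follow the areas, as the methods place striatum in M and they were higher in CxH and MH. The hippocampal genes, at 52.9, 60.6, 58.7 and 40.8 RPM in CxH, MH, CxWT and MWT, would not either. If the cortical, midbrain and diencephalic markers and not the labels give the areas, the Cx and M ratios compare areas, and by Ids genotypes as well. The pairs of like markers are then CxH with MH and CxWT with MWT, within which Ids differed by -1.44 ± 0.023 and 1.19 ± 0.025 on the log2 scale. Which labels, if any, are wrong was not tested, and all libraries are named by their labels.

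**Figure D1:**
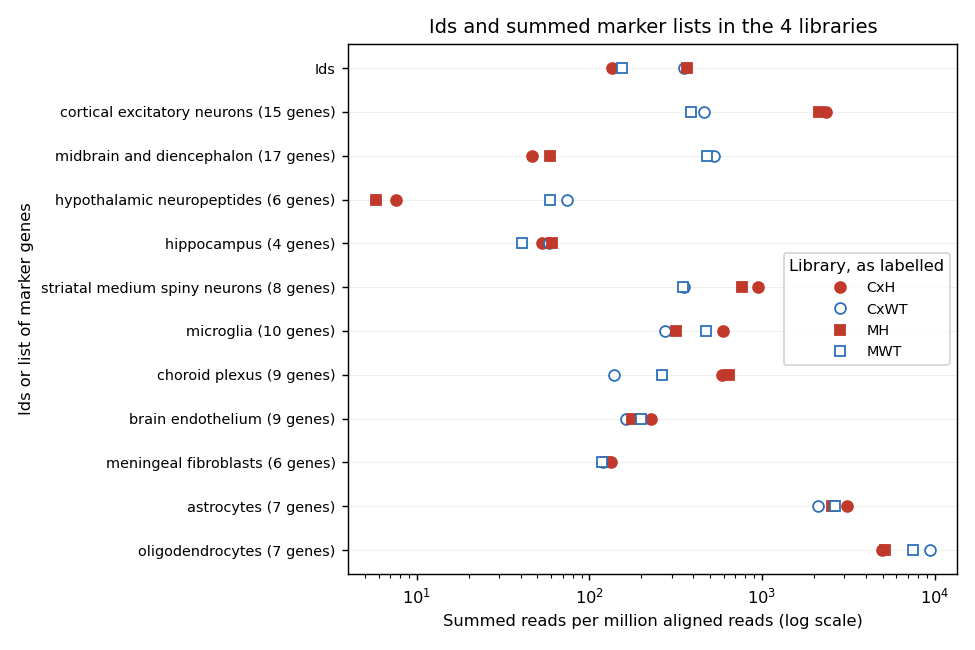
Ids and the summed levels of marker lists in each library, in RPM on a log axis; filled red symbols are the H libraries, open blue symbols the WT libraries, circles Cx and squares M. For cortical excitatory neurons and for midbrain and diencephalon the 2 red symbols lie together and apart from the 2 blue ones, while Ids pairs CxH (135) with MWT (155) and MH (368) with CxWT (354).

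Members differed between H and WT libraries in both areas, mostly in ligands, R-spondins and secreted antagonists, with no cytoplasmic gene past the threshold in Cx or M. Between CxH and CxWT, 20 of the 46 members were called, 10 higher and 10 lower in CxH, where 20.9% of all genes were called, 9.46% higher and 11.5% lower. Between the libraries labelled MH and MWT, 20 members were called as well, 11 higher and 9 lower, against 25.0% of all genes, 12.3% higher and 12.7% lower. Taken without sign, log2 ratios had a median of 0.53 for members and 0.34 for all genes in Cx, and of 0.57 against 0.40 in M. In both areas 7 members were called higher in H (6.23% of all genes), 8 were called lower in H (6.46%), and 0 were called in opposite directions (0.543%). The former were Rspo2, Wnt10a, Dkk3, Wnt2, Wnt9a, Wnt4 and Rspo3, and the latter Wnt9b, Wnt3, Sfrp5, Wif1, Sfrp2, Lgr5, Fzd1 and the RNA gene Fzd10os. Both H libraries lay above both WT libraries for 18 members (24.3% of all genes) and below them for 12 (36.9%).

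**Figure D2:**
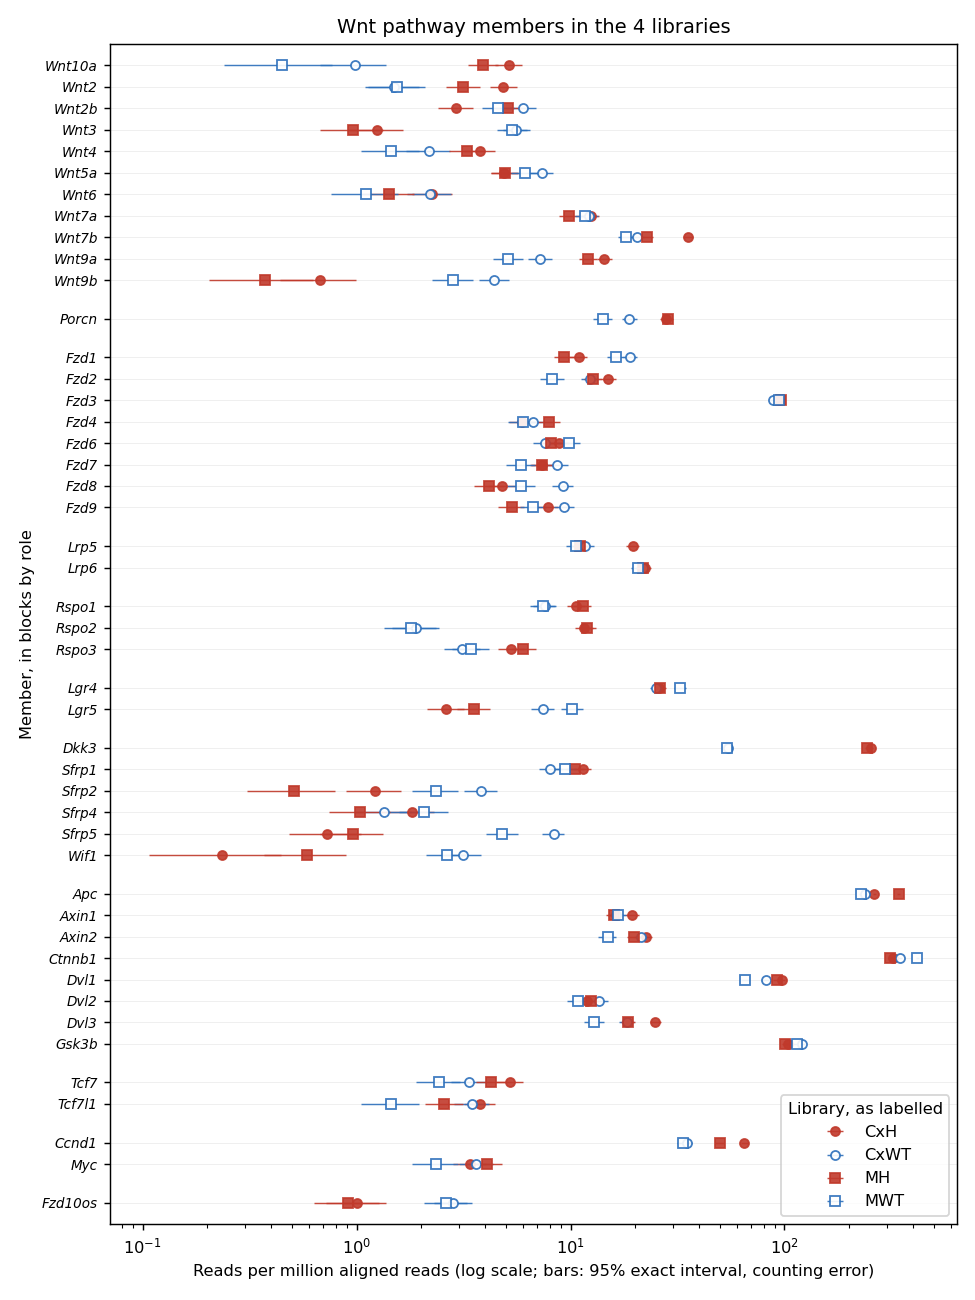
Level of each of the 46 members in the 4 libraries, in RPM on a log axis with 95% exact Clopper-Pearson intervals that cover counting error, in blocks by role. Rspo2, Wnt10a and Dkk3 have both red symbols (H) to the right of both blue ones (WT), Wnt3, Wnt9b, Sfrp5 and Wif1 have them to the left, and the symbols of Fzd3, Lrp6 and Axin1 lie close together.

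Among the 11 ligands, 5 were called higher and 3 lower in CxH than in CxWT, and 4 were called higher and 2 lower in MH than in MWT. Wnt10a, a ligand known from tooth and skin development (chromosome 1, 74838090 to 74850753), had 5.14 RPM in CxH and 3.91 in MH, against 0.982 in CxWT and 0.449 in MWT. Both H libraries were above both WT libraries, and the WT values rested on 33 and 13 reads. The Cx ratio was 2.39 ± 0.27 and the M ratio 3.12 ± 0.42. Its neighbour Wnt6, whose annotated end lies 6.2 kb from the start of Wnt10a with no protein-coding gene between them, was named for its position after its values were seen and had 2.26, 1.42, 2.20 and 1.11 RPM in CxH, MH, CxWT and MWT. These levels overlapped between H and WT, and neither the Cx ratio of 0.04 ± 0.23 nor the M ratio of 0.36 ± 0.32 was called.

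Wnt3 and Wnt9b, the lowest-ratio ligands, are also neighbours. Wnt3, a canonical ligand known for its part in hippocampal neurogenesis (chromosome 11, 103635464 to 103679271, plus strand), had 1.25 RPM in CxH and 0.964 in MH, against 5.59 in CxWT and 5.35 in MWT. Wnt9b, known from kidney development (chromosome 11, 103588678 to 103611135, minus strand), had 0.675 RPM in CxH and 0.375 in MH, against 4.40 in CxWT and 2.83 in MWT. For both genes the H libraries were below the WT libraries without overlap, as for 36.9% of all genes. The Cx and M ratios of Wnt3 were -2.17 ± 0.23 and -2.47 ± 0.27, and those of Wnt9b -2.70 ± 0.31 and -2.92 ± 0.42. Their starts face away from each other across 24.3 kb that hold no protein-coding gene. The 250 bases before each start are shown because the pair moved together, from the RefSeq table on GRCm38.p6, each read 5′ to 3′ on the strand of its gene with CG dinucleotides in capitals. They lie at chr11:103773925-103774174 (plus strand) for Wnt3 and chr11:103749822-103750071 (minus strand) for Wnt9b.
Wnt3: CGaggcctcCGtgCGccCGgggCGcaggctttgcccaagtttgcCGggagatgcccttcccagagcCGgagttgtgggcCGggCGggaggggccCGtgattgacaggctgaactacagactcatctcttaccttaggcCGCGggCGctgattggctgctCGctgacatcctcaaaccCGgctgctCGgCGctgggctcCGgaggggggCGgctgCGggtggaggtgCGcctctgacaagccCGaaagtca
Wnt9b: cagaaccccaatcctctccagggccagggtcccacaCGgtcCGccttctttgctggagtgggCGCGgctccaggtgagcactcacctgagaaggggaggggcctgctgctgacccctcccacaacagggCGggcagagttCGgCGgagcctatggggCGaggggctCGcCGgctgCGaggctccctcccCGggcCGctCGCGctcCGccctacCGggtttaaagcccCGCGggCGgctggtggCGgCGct

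Each of these windows holds 22 CG dinucleotides, the median of the member windows, against a median of 6 over all windows of the table. RefSeq starts were matched for 25 of the 46 members, giving 27 windows, and Rspo2, Wnt10a and Dkk3 were not among them. The median GC content was 71.2% in these windows and 52.4% over all. The letters CTTTGAT and CTTTGAA, forms of the site bound by TCF/LEF factors, were searched on both strands; 0 of the 27 windows held either, against 3.21% for CTTTGAT, 4.46% for CTTTGAA and 7.48% for either among 32851 windows of the same length.

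Wnt2, Wnt9a and Wnt4 were called higher in H in both areas. Wnt2 (chromosome 6, 17938940 to 17980585) had 4.86 RPM in CxH and 3.16 in MH, against 1.49 and 1.55 in CxWT and MWT, with a Cx ratio of 1.71 ± 0.23 and an M ratio of 1.02 ± 0.25. Wnt9a, known from joint formation (chromosome 11, 59120430 to 59147054), had 14.4 and 12.1 RPM in CxH and MH against 7.23 and 5.11 in CxWT and MWT, with log2 ratios of 1.0 ± 0.11 and 1.24 ± 0.14. Wnt4, known from kidney and gonad development, had 3.77 and 3.27 RPM against 2.17 and 1.45, with log2 ratios of 0.79 ± 0.21 and 1.17 ± 0.26. Both H libraries were above both WT libraries for all 3, as for 24.3% of all genes. Wnt4 was not called in Cx once the ratio was corrected for GC content and transcript length (0.58).

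Wnt7b and Wnt2b were called in Cx and not in M, a difference that was not itself tested. Wnt7b, which acts with Wnt7a on the brain vasculature, had 35.3 RPM in CxH, above the 20.4, 22.7 and 18.1 RPM of CxWT, MH and MWT. The Cx ratio was 0.79 ± 0.068 and the M ratio 0.33 ± 0.080. After the correction for GC content and length they were 0.53, which was no longer called, and -0.22. An antisense non-coding gene overlaps Wnt7b, and the sources used here do not say whether reads were counted by strand. Genes on the other strand also overlap Axin2, Ctnnb1, Dvl1, Dvl2, Tcf7l1 and Wnt5a. Wnt2b had 2.91 RPM in CxH, the lowest of the 4, against 6.01, 5.09 and 4.59 in CxWT, MH and MWT, with a Cx ratio of -1.05 ± 0.17 and an M ratio of 0.15 ± 0.16. The remaining ligands, Wnt5a and Wnt7a, had 4.91 to 7.35 and 9.80 to 12.5 RPM and were called in neither area. Per kilobase of the longest protein-coding transcript, Wnt7b had the highest level among ligands in each library, at 5.17 to 10.1 RPM per kb. Wnt9a came next in CxH and MH, at 4.35 and 3.64 against 3.93 and 3.09 RPM per kb for Wnt7a, and Wnt7a in CxWT and MWT, at 3.85 and 3.70 against 2.18 and 1.54 for Wnt9a. The lowest was Wnt9b in CxH and MH, at 0.149 and 0.0829 RPM per kb, and Wnt10a in CxWT and MWT, at 0.398 and 0.182. Summed over all 11, ligands had 88.0 RPM in CxH and 67.7 in MH, against 70.0 in CxWT and 58.4 in MWT.

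Porcn, the acyltransferase that all ligands depend on (chromosome X, 7770974 to 7783651), had 27.9 and 28.4 RPM in CxH and MH, against 18.8 and 14.2 in CxWT and MWT. The H libraries lay together above both WT libraries. The Cx ratio was 0.57 ± 0.072, short of the threshold, and the M ratio 1.0 ± 0.084, which was called.

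Of the 8 Frizzled receptors, Fzd1 and Fzd8 were called lower in CxH than in CxWT, and Fzd1 was called lower in MH than in MWT. Fzd1 (chromosome 5, 4753842 to 4758216) had 10.9 and 9.37 RPM in CxH and MH against 18.9 and 16.3 in CxWT and MWT. Its Cx ratio was -0.80 ± 0.091 and its M ratio -0.80 ± 0.10, with no overlap between H and WT, and neither was called with a biological coefficient of variation assumed to be 0.2. Fzd8 had 4.78 and 4.18 RPM against 9.22 and 5.87, and its Cx ratio was -0.95 ± 0.13 and its M ratio -0.49 ± 0.16. After the correction for GC content and length Fzd8 was called in M too, at -0.86, as was Fzd9, at -0.92, which had 7.84, 5.30, 9.34 and 6.70 RPM in CxH, MH, CxWT and MWT and an M ratio of -0.34 ± 0.15 before it. Fzd2 had 15.0, 12.7, 12.3 and 8.19 RPM in the same order and was called in neither area. Fzd3, known for its role in axon guidance, was the most abundant receptor per length, at 22.4 RPM per kb, and had 87.9 to 96.2 RPM in the 4 libraries. Fzd4, Fzd6 and Fzd7, at 5.84 to 9.88 RPM, were called in no pair of libraries. The 8 receptors summed to 151 to 161 RPM in the 4 libraries, a narrower range than that of the ligands. Fzd3 made up most of each sum, so it says little about the other receptors.

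The coreceptors Lrp5 and Lrp6 differed from each other. Lrp6 had 22.3, 21.7, 21.7 and 20.7 RPM in CxH, MH, CxWT and MWT, with a Cx ratio of 0.04 ± 0.073 and an M ratio of 0.07 ± 0.078. Lrp5 had 19.5 RPM in CxH and 10.6 to 11.7 RPM in the other 3 libraries, which lay close together. Its Cx ratio was 0.74 ± 0.090, which was called, and its M ratio 0.07 ± 0.11. The Cx call of Lrp5 was lost with the assumed variation and after the correction for GC content and length, at 0.47, and that correction turned its M ratio to -0.50.

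Of the 3 R-spondins, Rspo2 and Rspo3 were called higher in H in both areas and Rspo1 in neither. Their sum was 27.5 RPM in CxH and 29.4 in MH, against 12.6 in each WT library, and most of this difference was in Rspo2. Rspo2 (chromosome 15, 42852357 to 43002364) had 11.6 RPM in CxH and 12.0 in MH, against 1.90 in CxWT and 1.80 in MWT. Its H values lay within the counting intervals of each other, as did its WT values, and the Cx and M ratios were 2.60 ± 0.19 and 2.74 ± 0.21. Rspo3 (chromosome 10, 29172915 to 29255673) had 5.27 and 6.02 RPM in CxH and MH against 3.12 and 3.42 in CxWT and MWT, with log2 ratios of 0.76 ± 0.17 and 0.82 ± 0.17, and neither was called with a biological coefficient of variation assumed to be 0.2. Rspo1 ranged from 7.43 to 11.4 RPM. The R-spondin receptor Lgr5, widely used as a marker of intestinal stem cells (chromosome 10, 114887367 to 115024836), moved the other way, with 2.62 and 3.53 RPM in CxH and MH against 7.41 and 10.2 in CxWT and MWT. Lgr5 was called lower in both areas, at log2 ratios of -1.50 ± 0.17 and -1.53 ± 0.15, whereas Lgr4 had 25.2 to 32.6 RPM and was called in neither.

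The secreted antagonists were lower in the H libraries, apart from Sfrp1 and, in Cx, Sfrp4, while the Dkk family member Dkk3 was higher. Sfrp5 (chromosome 19, 42272461 to 42276742) had 0.727 RPM in CxH and 0.964 in MH, against 8.33 in CxWT and 4.80 in MWT. The counting intervals reached 1.33 RPM at most in the H libraries and 4.04 RPM at least in the WT libraries, and the Cx and M ratios were -3.52 ± 0.29 and -2.32 ± 0.27. Wif1, Wnt inhibitory factor (chromosome 10, 120471016 to 120537706), had 0.234 RPM (95% exact Clopper-Pearson interval 0.107 to 0.444, from 9 reads) in CxH and 0.589 in MH, against 3.15 in CxWT and 2.66 in MWT. Its Cx ratio of -3.75 ± 0.50 was the lowest of all members, and its M ratio was -2.18 ± 0.35. With so few reads in CxH, Wif1 may be in the table only through libraries where it is high. The 250 bases before the starts of these antagonists, whose Cx ratios were the lowest of the members, are given as above, at chr19:42202253-42202502 (minus strand) for Sfrp5 and chr10:121033754-121034003 (plus strand) for Wif1 on GRCm38.p6.
Sfrp5: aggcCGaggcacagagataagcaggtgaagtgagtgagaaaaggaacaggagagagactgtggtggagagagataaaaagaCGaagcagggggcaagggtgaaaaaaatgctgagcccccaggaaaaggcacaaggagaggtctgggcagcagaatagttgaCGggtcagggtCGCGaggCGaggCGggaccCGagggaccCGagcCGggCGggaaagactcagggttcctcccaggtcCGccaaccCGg
Wif1: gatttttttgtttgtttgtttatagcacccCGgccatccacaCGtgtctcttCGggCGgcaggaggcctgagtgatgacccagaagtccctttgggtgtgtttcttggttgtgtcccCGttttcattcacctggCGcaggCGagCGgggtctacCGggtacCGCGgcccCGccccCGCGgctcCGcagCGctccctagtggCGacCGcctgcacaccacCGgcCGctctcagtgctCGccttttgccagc

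These windows hold 13 CG dinucleotides for Sfrp5 and 21 for Wif1. Sfrp2 (chromosome 3, 83570243 to 83578238) had 1.22 and 0.509 RPM in CxH and MH against 3.81 and 2.35 in CxWT and MWT, with log2 ratios of -1.64 ± 0.25 and -2.21 ± 0.37. An antisense non-coding gene overlaps Sfrp2 as well. Sfrp1 had 8.06 to 11.4 RPM and was called in neither area, and Sfrp4, named after its values were seen, was called in M alone, where MH had 1.04 RPM and MWT 2.07, and not with the assumed variation. Dkk3, a divergent member of the Dkk family that is abundant in cortical and hippocampal neurons (chromosome 7, 119259533 to 119302571), had 254 RPM in CxH and 243 in MH, against 54.6 in CxWT and 54.1 in MWT. Libraries with the same H or WT label thus differed little, and the Cx ratio was 2.22 ± 0.037 and the M ratio 2.17 ± 0.039. Per length Dkk3 came second to Ctnnb1 in CxH and MH, at 75.7 and 72.5 RPM per kb, but in CxWT and MWT, at 16.3 and 16.1, it also lay below Dvl1, Fzd3 and Apc.

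**Figure D3:**
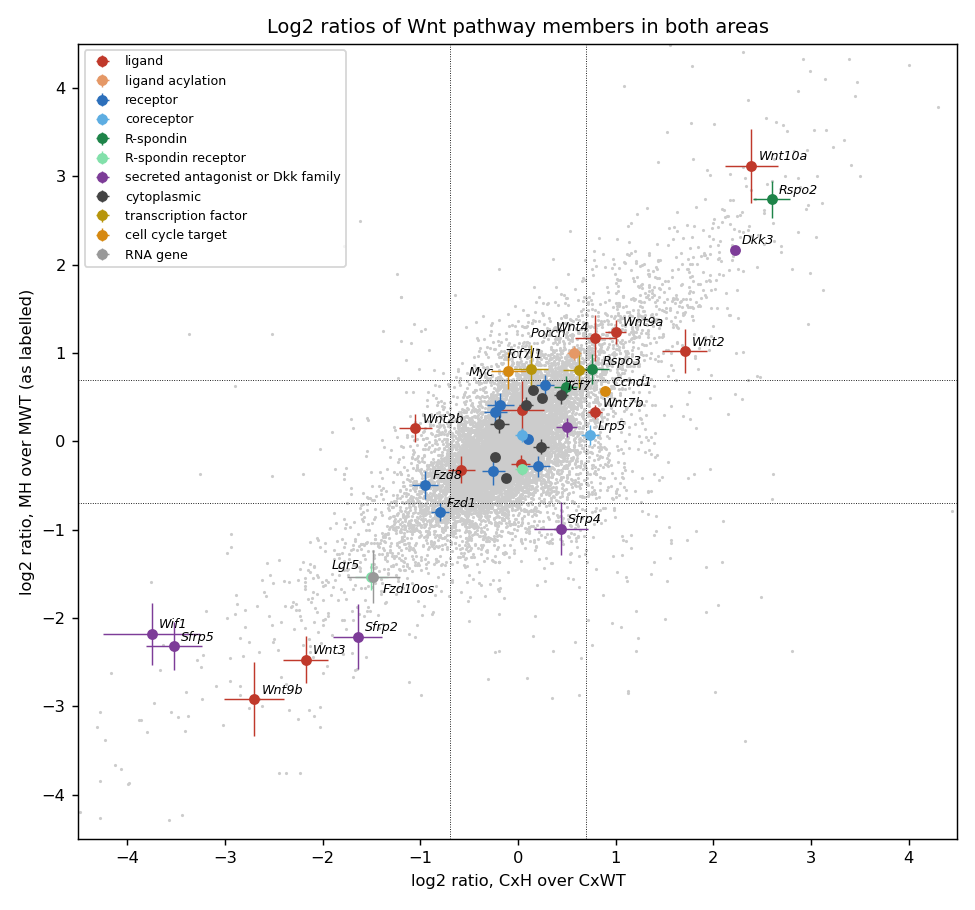
Log2 ratio of MH over MWT against that of CxH over CxWT, with bars of 1 counting standard error; coloured points are the members by role, grey points all genes of the table that fall inside the frame, and dotted lines the threshold of 0.7. Rspo2, Wnt10a and Dkk3 lie at the upper right and Wnt3, Wnt9b, Sfrp5 and Wif1 at the lower left, while the cytoplasmic members lie inside the dotted lines.

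Of the 8 cytoplasmic members, 0 were called in Cx and 0 in M. Ctnnb1, which encodes β-catenin, had 320, 311, 347 and 417 RPM in CxH, MH, CxWT and MWT, with a Cx ratio of -0.12 ± 0.019 and an M ratio of -0.42 ± 0.019. Per length it was the most abundant member, at 96.3 RPM per kb. Gsk3b, the kinase of the destruction complex, had 104, 101, 121 and 114 RPM in the same order. Both genes were thus lower in the H libraries without overlap, as were 36.9% of all genes, and by less than the threshold. Apc, a scaffold of that complex, had 263, 342, 237 and 228 RPM, with a Cx ratio of 0.15 ± 0.022 and an M ratio of 0.58 ± 0.022. Axin1 had 19.3, 16.0, 16.3 and 16.7 RPM, and Axin2, a scaffold that is itself a target of the pathway, had 22.5, 19.8, 21.3 and 14.9 RPM. The Cx and M ratios of Axin2 were 0.08 ± 0.073 and 0.41 ± 0.087, and those of Axin1 were 0.24 ± 0.081 and -0.06 ± 0.088. Dvl3 had 24.9, 18.5, 18.4 and 12.9 RPM, with a Cx ratio of 0.44 ± 0.074 and an M ratio of 0.52 ± 0.093, and the ratios of Dvl1 and Dvl2 ranged from -0.19 to 0.49. Apc, Dvl1 and Dvl3 were higher in both H libraries than in both WT libraries, as were 24.3% of all genes. Dvl3 was called between CxH and MWT, at 0.95 ± 0.088. Summed over the 8 genes, the level was 863 and 912 RPM in CxH and MH and 857 and 880 RPM in CxWT and MWT.

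The nuclear factors Tcf7 and Tcf7l1 were called higher in MH than in MWT and not called in Cx. Tcf7 had 5.19 and 4.23 RPM in CxH and MH against 3.36 and 2.42 in CxWT and MWT, with a Cx ratio of 0.63 ± 0.17 and an M ratio of 0.81 ± 0.21. Tcf7l1, best known as a repressor among these factors, had 3.77, 2.57, 3.45 and 1.45 RPM in CxH, MH, CxWT and MWT, and MWT was the lowest of the 4. Its Cx ratio was 0.13 ± 0.18 and its M ratio 0.82 ± 0.27. Both M calls were lost after the correction for GC content and length, at 0.63 for Tcf7 and 0.33 for Tcf7l1, and with scaling by TMM or DESeq2 factors Tcf7 was called in Cx, at 0.72. Among the targets, Ccnd1 (cyclin D1, chromosome 7, 152115836 to 152125774) had 64.8 and 49.7 RPM in CxH and MH against 35.1 and 33.5 in CxWT and MWT. Ccnd1 was called in Cx, at 0.89 ± 0.051, and not in M, at 0.57 ± 0.057, without overlap between H and WT; a protein-coding gene on the other strand overlaps it. Myc had 3.38, 4.09, 3.63 and 2.35 RPM in CxH, MH, CxWT and MWT, a Cx ratio of -0.10 ± 0.18 and an M ratio of 0.80 ± 0.21, which was called, though not with the assumed variation. The RNA gene Fzd10os, taken in by its symbol and named after its values were seen, had at most 95 reads in a library and log2 ratios of -1.48 ± 0.27 and -1.53 ± 0.30.

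The Cx and M ratios share no library but come from the same mice, and across the 46 members their Pearson correlation was 0.91 and their Spearman correlation 0.82, with the same sign in 36. Over the 30 members with at least 100 reads in every library these were 0.83 and 0.73, and over all 11010 such genes 0.73 and 0.64. These correlations run across genes, which share base composition, length and the difference in area markers given above, and they are descriptions only.

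Between libraries with the same genotype label fewer members were called than between H and WT libraries. The shares of members called, 10.9% between CxH and MH and 8.7% between CxWT and MWT, were still above those of all genes, 3.5% and 7.54%. By the markers these pairs are alike in area and differ in Ids, which was lower in CxH than in MH and higher in CxWT than in MWT, so they cannot be read as differences between areas alone. Between CxH and MH 5 members were called (3.5% of all genes, 2.43% higher and 1.06% lower), with Lrp5, Sfrp2 and Sfrp4 higher in CxH, at 0.81 ± 0.088, 1.26 ± 0.39 and 0.80 ± 0.29, and Wnt2b and Wif1 lower, at -0.81 ± 0.17 and -1.33 ± 0.57. Between CxWT and MWT 4 members were called, all higher in CxWT, against 7.54% of all genes, 5.43% higher and 2.11% lower. They were Tcf7l1 at 1.25, Wnt10a at 1.13, Wnt6 at 0.99 and Sfrp5 at 0.79 on the log2 scale. After the correction for GC content and length 1 member was called in this pair, against 3.19% of all genes with a transcript. With the assumed variation 1 was called, against 3.83% of all genes. Wnt6 and Sfrp4 have under 100 reads in every library. The median size of the log2 ratio of members was 0.26 between CxH and MH and 0.33 between CxWT and MWT, smaller than the 0.53 and 0.57 between H and WT, and over all genes it was 0.20 and 0.24, against the 0.34 and 0.40 given above. The median log2 ratio of the markers of cortical excitatory neurons was 0.13 between CxH and MH and 0.23 between CxWT and MWT, but 2.03 in Cx and 2.29 in M, and that of the midbrain and diencephalic markers was -0.04 and 0.32, but -4.07 and -3.71. The 4 hippocampal genes did not follow this, with medians of -0.14 and 0.55 in the former pairs and -0.09 and 0.56 in Cx and M.

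The pairs that cross both labels were added because Ids is at a like level in MH and CxWT and in CxH and MWT. Between MH and CxWT 16 members were called, 6 higher and 10 lower in MH, against 15.3% of all genes, 6.41% higher and 8.89% lower. Between CxH and MWT 22 members were called, 15 higher and 7 lower in CxH, against 30.7%, 15.6% higher and 15.1% lower. After the correction for GC content and length 9 were called higher and 9 lower, against 16.5% of all genes with a transcript. These pairs share libraries with the former ones and are no independent evidence. In all 4 pairs of an H with a WT library, Wnt10a, Wnt2, Wnt9a, Rspo2 and Dkk3 were called higher in H (5 members, 4.9% of all genes) and Wnt3, Wnt9b, Lgr5, Sfrp2, Sfrp5, Wif1 and Fzd10os lower (7 members, 5.08%). The log2 ratio of MH over CxWT was 2.16 for Dkk3 and 2.65 for Rspo2, and that of CxH over MWT was 2.23 and 2.69. Of the 46 members, 29 were called in at least 1 of the 6 pairs (41.8% of all genes) and 17 in none (58.2%).

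**Figure D4:**
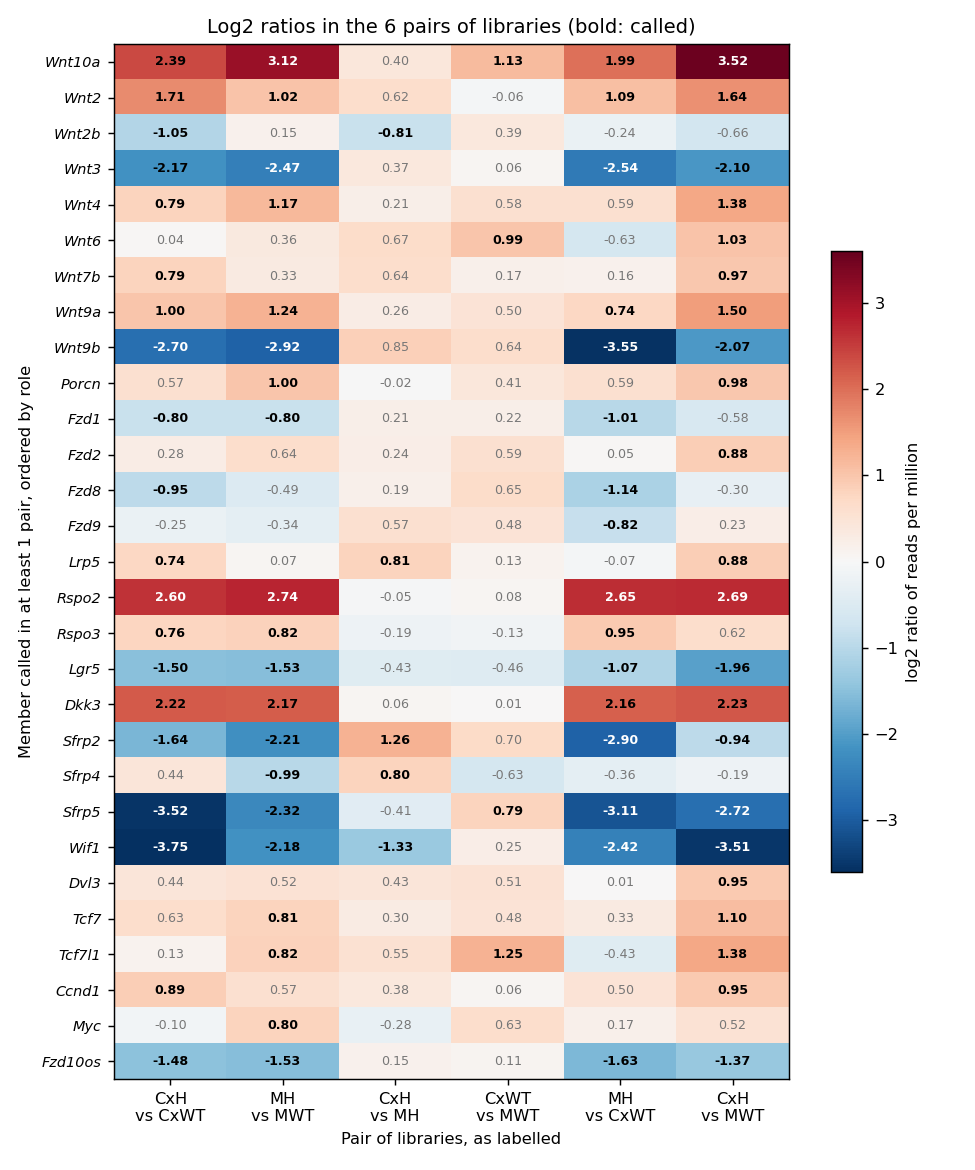
Log2 ratios of the 29 members called in at least 1 of the 6 pairs of libraries, coloured from blue (lower in the library named first) to red (higher), with calls in bold. The 4 columns that set an H against a WT library share the red blocks of Wnt10a, Rspo2 and Dkk3 and the blue blocks of Wnt3, Wnt9b, Sfrp5 and Wif1, and the columns CxH vs MH and CxWT vs MWT are mostly pale.

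In a fit of edgeR's quasi-likelihood test over all 4 libraries, with area as a term and 1 residual degree of freedom, 19 members passed a Benjamini-Hochberg adjusted p of 0.05 between the H and WT labels, 11 higher and 8 lower in H, against 21.1% of all genes, 11.8% higher and 9.25% lower. The unadjusted p was under 0.05 for 26 members and for 4409 of all 12700 genes. DESeq2 gave 13 adjusted calls, 7 higher and 6 lower in H, against 16.5% of all genes. With scaling by aligned reads edgeR gave 15, 7 higher and 8 lower, against 18.7%. Adjusted p-values by edgeR were 8.8e-06 for Dkk3, 2.7e-05 for Rspo2, 0.00024 for Sfrp5, 0.0003 for Wnt10a, 0.00047 for Wnt9b and 0.00049 for Wnt3. Of the cytoplasmic members Dvl3 passed by edgeR, at an adjusted p of 0.046. In this fit the areas stand in for replicates although they come from the same mice, so its p-values do not measure the spread between animals. Its direction rests on labels that Ids goes against in M. Its area term rests on labels that the cortical, midbrain and diencephalic markers go against in MH and CxWT. Those markers divide as H and WT do, so genotype and the difference in area markers cannot be told apart in it.

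Of 118 other Wnt pathway genes listed by branch, 104 were in the table; 24 were called in Cx, 15 higher and 9 lower, where 20.9% of all genes were called, and 35 in M, 25 higher and 10 lower, where 25.0% were. In the branch that acts through calcium, 7 of 17 genes were called higher and 3 lower in Cx, and 6 higher and 2 lower in M. Camk2a, a calmodulin-dependent kinase of excitatory synapses, had 2900 and 2560 RPM in CxH and MH against 604 and 493 in CxWT and MWT. Plcb4, a phospholipase of the same branch, had 16.9 and 21.6 RPM against 52.7 and 44.6. The lowest ratio was that of Tcf7l2, the TCF/LEF family member known for its high expression in thalamus, with 3.71 RPM in CxH and 3.27 in MH against 59.3 in CxWT and 48.0 in MWT. Its Cx ratio was -4.00 ± 0.12 and its M ratio -3.88 ± 0.14. Nlk, a kinase that acts on TCF/LEF factors, had the highest Cx ratio of the nuclear factors, at 1.17 ± 0.058, and an M ratio of 1.07 ± 0.061. In the planar cell polarity branch Celsr1, a cadherin, was called higher in both areas, at 1.22 ± 0.15 and 1.30 ± 0.18, and Vangl1 lower, at -1.80 ± 0.15 and -1.10 ± 0.15. Of the genes for secretion and extracellular control, the Wnt-cleaving protease Trabd2b was called higher, at 1.98 ± 0.23 and 1.72 ± 0.25, and Cthrc1 lower, at -1.46 ± 0.16 and -1.10 ± 0.16. Cxxc4, an inhibitor that binds Dvl, was called lower, at -1.38 ± 0.070 and -1.07 ± 0.073, while Gsk3a was called in neither area. Among other receptors Lrp4 was called in Cx alone, at 1.09 ± 0.063, and Tspan12, which works with Fzd4, in neither. Of the other targets, Ccnd2 was called higher in both areas, at 1.42 ± 0.064 and 1.85 ± 0.072, and Ppard in M alone, at 0.95 ± 0.074. Between CxH and MH 0 of the 104 genes were called by the Poisson test at the fold threshold, against 3.5% of all genes, and between CxWT and MWT 15 were, 13 of them higher in CxWT, against 7.54% of all genes, 5.43% higher.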

How the data were processed

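The authors sequenced pooled mRNA of 7 mice per condition in a single run on a SOLiD 3 Plus instrument and aligned reads to NCBI37/mm9 with PASS 2.10, allowing 2 mismatches and no gap. The deposited values are raw counts, which the authors made from reads aligned to a single gene, keeping genes with coverage above 50% of their length. The gene annotation and the use of strand are not given in the sources used here. Wnt genes absent from that table were not analysed here.

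RPM are counts scaled to the aligned reads of each library. Every gene was tested in the 6 pairs of libraries by a Poisson likelihood ratio test, and calls needed p under 0.05 and a log2 ratio of 0.7 or more up or down, after the study's methods; counts of 0 became 1 in ratios. A quasi-likelihood fit of edgeR with TMM factors and area as a term used all 4 libraries. Symbols were found for 12690 genes, and 12417 were matched to GENCODE vM1, including all 46 members, of which 45 have a protein-coding transcript. Intervals and standard errors cover counting error only, since each condition is 1 library. They treat reads as independent, although PCR copies of a fragment are not independent molecules. There were 23475080 reads on genes in CxH and 22057807 in MH, against 20266394 in CxWT and 16380080 in MWT.

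The members, the lists of other pathway genes and of cell type markers, and the tests were chosen with earlier results of these data known. Members were described singly if called in at least 1 pair with at least 100 reads in a library, or if central to the pathway (Ctnnb1, Gsk3b, Apc, Axin1, Axin2, Lrp5, Lrp6), and otherwise by range and count; Wnt6, Sfrp4 and Fzd10os were named outside this rule after their values were seen. Of the other pathway genes, those with the highest and lowest Cx ratio in each branch were named among those with at least 100 reads in either library. Alternatives were other library scalings, filters and thresholds, p-values adjusted over all genes, an exact test of edgeR in which the biological coefficient of variation was assumed to be 0.2, 0.5 added to each count, and a lowess fit that removed trends with GC content and transcript length. The Poisson test with its calls, the correction for GC content and length, and the quasi-likelihood fit were tested on simulated data. Software was edgeR 4.0.16 and DESeq2 1.42.0 in R 4.3.3, and scipy 1.17.1, statsmodels 0.14.6, pandas 2.3.3, numpy 2.4.6 and matplotlib 3.10.9 in Python 3.11.15.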

Additional observations from a re-analysis of the deposited data

Results flagged for a closer look

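The log2 ratios of 10 members lay on opposite sides of 0 in Cx and M, with 1 library on each side of either ratio, and the difference was not tested. Of these, 3 were called in 1 of the areas. For Wnt2b the Cx ratio minus the M ratio was -1.19 (-1.05 in Cx, 0.15 in M), and its M ratio was -0.06 after the correction for GC content and length, so that its signs no longer differed. For Sfrp4 the difference was 1.43 (0.44 in Cx, -0.99 in M), from 39 to 70 reads per library. For Myc it was -0.91 (-0.10 in Cx, 0.80 in M). Microglial genes also went opposite ways, with a median Cx ratio of 1.21 and a median M ratio of -0.66, and their part in these differences was not tested. The other 7 members with opposite signs were called in neither area, and the Cx ratio minus the M ratio was 0.30 for Axin1, -0.39 for Dvl2, -0.59 for Fzd4, 0.50 for Fzd6, -0.56 for Fzd7, 0.35 for Lgr4 and 0.29 for Wnt7a. Signs no longer differed for Dvl2 (-0.43 in Cx, -0.26 in M) and Wnt7a (-0.16 in Cx, -0.51 in M) after the correction, nor for Axin1 with TMM or DESeq2 factors, where its M ratio was 0.0 when rounded.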

How the results depend on the processing

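Total counts of members called kept within 1.5 times their value under every alternative except the following. With a log2 threshold of 1, 12 members in place of 20 were called in Cx, 2 in place of 5 between CxH and MH, 2 in place of 4 between CxWT and MWT, and 20 in place of 35 other pathway genes in M, while calls over all genes were 1401 in place of 2658 in Cx and 1642 in place of 3170 in M. With the biological coefficient of variation assumed to be 0.2, 1 member was called between CxH and MH (1.5% of all genes) and 1 between CxWT and MWT (3.83%). With the correction for GC content and length 1 was called between CxWT and MWT (3.19% of genes with a transcript). That correction also moved the split between CxH and MWT from 15 higher and 7 lower to 9 and 9, between MH and MWT from 11 and 9 to 9 and 10, and of other pathway genes in M from 25 and 10 to 15 and 10. Calls over all genes with a transcript were then 16.5% between CxH and MWT and 18.3% between MH and MWT. In Cx the split of 10 higher and 10 lower became 4 and 8 at the threshold of 1 and 6 and 9 with the assumed variation, and in M that of 11 and 9 became 7 and 7 under either. Between CxH and MWT the threshold of 1 left 9 higher. Across all genes the Spearman correlation of the log2 ratio with GC content was 0.43 in Cx and 0.47 in M, and across the 45 members with a transcript 0.06 and 0.16, and for all genes and members it was 0.60 and 0.66 between CxWT and MWT, 0.54 and 0.41 between CxH and MH, 0.66 and 0.33 between CxH and MWT and 0.16 and -0.12 between MH and CxWT. Of the Cx and M ratios, for which single members were recomputed, 0 called ones changed sign and 14 that were not called did. With the correction these were, in Cx, Axin2 at -0.1, Dvl1 at -0.02, Tcf7l1 at -0.13, Wnt6 at -0.22 and Wnt7a at -0.16, and in M Dvl1 at -0.1, Dvl2 at -0.26, Lrp5 at -0.5, Lrp6 at -0.01, Wnt2b at -0.06, Wnt6 at -0.15 and Wnt7b at -0.22. With TMM factors and with DESeq2 size factors the M ratio of Axin1 was 0.0 when rounded, and with totals of the table that of Fzd3 was -0.03. The cause of these changes was not tested. Of the 40 Cx and M calls of single members, 11 were lost with the assumed variation (Fzd1 and Rspo3 in both areas, Lrp5, Wnt4 and Wnt7b in Cx, and Myc, Sfrp4, Tcf7 and Tcf7l1 in M), 14 at the threshold of 1 and 5 with the correction, which added 2 and could not be made for Fzd10os, so that its counts leave this gene out. The quasi-likelihood calls, 19 of 46, were 19 with DESeq2 size factors, 15 with scaling by aligned reads, 19 with the filter of edgeR and 13 by DESeq2. The shares of all genes tested were then 20.8%, 18.7%, 21.1% and 16.5%. The 11 higher calls became 7 with scaling by aligned reads and 7 by DESeq2. TMM scaling moved the median log2 ratio of all genes from -0.09 to 0.0 for the Cx ratio and from -0.07 to -0.01 for the M ratio, and from -0.11 to 0.0 between MH and CxWT. No paired analysis was possible because each group is 1 pool of mice and the labels give no replicate numbers, beyond the area term of the quasi-likelihood fit, which sets H against WT within each area, and no library could be left out. Depth limited the lowest members most, such as Wif1 with 9 reads in CxH. Variation between pools could not be measured.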
